A study of Drosophila melanogaster with 15 samples.

Results

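Of the 15 RNA-seq libraries of the study, 12 were used here. They are the 3 libraries of flies labelled as mutant for nitric oxide synthase (*Nos*) and the 9 libraries of flies mutant for *Dg*, *Dys* or *Syn1*, the core of the dystrophin glycoprotein complex (DGC). The question was where the *Nos* mutants differed from the core mutants as a whole. Each library was made from poly-A RNA of a pool of about 10 whole male flies aged 1 week, with 1 library for each of the 5 genotypes in each of 3 conditions. The control libraries enter no comparison below. They were read only to keep rows whose estimate was OK throughout and in 1 alternative fit.

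The *Nos* flies carried Df(2L)BSC230 over deltaNos15, a deficiency of the region over a deletion allele of the gene. The *Syn1* flies carried Df(3L)BSC450 over deltaSyn1[5-2]. The *Dys* flies were homozygous for the deficiency Df(3R)Exel6184, and the *Dg* flies carried the alleles Dg[O55] and Dg[O86]. Unstressed flies were kept for 5 days at 25°C on standard food, temperature stress was 5 days at 33°C, and metabolic stress was 4 days at 25°C on yeast paste alone, without sugar. The titles of the unstressed *Dys*, *Syn1* and *Nos* libraries name a control genotype, whereas their genotype labels give the mutants, and the genotype labels were followed. A deficiency removes neighbouring genes along with its target, and each mutant is 1 genotype, so the lesion and the genetic background cannot be told apart.

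Dystroglycan, dystrophin and syntrophin link the extracellular matrix to the cytoskeleton at the membrane of muscle and nerve cells. Syntrophin can hold nitric oxide synthase at this complex. The nitric oxide that the enzyme makes activates soluble guanylyl cyclase, which raises cGMP and thereby cGMP-dependent protein kinases, and it also modifies proteins by nitrosylation of cysteines.

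Expression was read as FPKM, that is fragments scaled to transcript length and to the fragments of the library. A row is 1 line of the deposited tables; it can list several genes, and a gene can have several rows. The 10350 named rows whose estimate was marked OK in all 15 tables were analysed. Within each condition the *Nos* value was compared with each core mutant on the log2(FPKM + 1) scale, which gives 9 differences per row that share the same 3 *Nos* libraries. Differences below are means of these 9, *Nos* minus core, with the SE from limma. Two-sided limma tests asked whether a difference was not 0 (the test of any size) or was larger than 2-fold (the 2-fold test), both at a Benjamini-Hochberg adjusted p of 0.1. Their error is the disagreement between conditions, because no genotype was replicated within a condition. A further test, called the core-spread test below, fitted only *Nos* against core and condition. Its error is the spread of all mutant libraries around that fit, so differences among the core genotypes enter it. Libraries of the same core genotype count in it as separate repeats. It passed fewer rows than the test of any size, although for single rows its adjusted p could be lower. Pools of whole flies hold all tissues, so fewer cells of a type and less RNA per cell cannot be told apart.

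The row that carries *Nos* lists it together with CG6700 (2L, 10804187 to 10842871; positions are as listed, and the build of the tables is not stated). It was at 23.2 FPKM in unstressed *Nos* flies, 17.7 after heat and 27.2 after the yeast diet. The core libraries had a lowest value of 24.9, a median of 38.2 and a highest of 40.3. All 9 differences were lower in *Nos*, although the *Nos* metabolic library lay above the lowest core libraries. The mean difference was -0.58 ± 0.11 (SE), with an adjusted p of 0.0146 in the test of any size and 0.0453 in the core-spread test. The row thus fell but was not empty, and reads of *Nos* and CG6700 are not separated in it. Both rows named *Nos* alone were at or near 0 in nearly all libraries: 1 was at 0, 0.14 and 0 in the *Nos* flies and at most 0.631 in the core mutants, and the other was listed at 0 everywhere except the *Syn1* temperature library, at 2.30. They carry no check of the genotype.

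Rows of *Syn1* and *Dys* were listed at 0 in their own mutants. *Syn1* was at 6.99, 6.04 and 9.51 FPKM in the *Nos* libraries and listed at 0 in all 3 *Syn1* libraries. One row of *Dys* (1 of 12) was at 30.5, 31.2 and 38.1 in *Nos* and listed at 0 in the *Dys* libraries. The sum over all 12 rows named *Dys* alone was also 0 in the 3 *Dys* libraries. The row that lists *Dys* with CG6255 was at 81.6 to 89.2 there, and reads of *Dys* and CG6255 are not separated in it. *Dg* was at 11.0, 12.2 and 11.3 in *Nos*, against 10.3, 12.5 and 19.3 as the lowest, median and highest core values. The *Dg* libraries themselves were at 13.6, 19.3 and 12.5, so the level of this row does not check their genotype. That difference of -0.15 ± 0.11 (SE) did not pass the test of any size (adjusted p = 0.376).

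Genes beside *Nos* were lower as well. Of 36 rows within 100 kb of the *Nos* row on 2L, 18 were lower in all 9 differences and 0 were higher in all 9, where 5.75% of all rows were lower and 6.44% higher by that rule. In the test of any size 20 of these rows fell and 1 rose, where 13.4% of all rows fell and 12.6% rose. In the core-spread test 9 fell and 0 rose (0.667% and 0.831% of all rows). Their median difference was -0.40, beside -0.01 for the 101 rows between 100 and 500 kb away and -0.01 for all rows. Their summed FPKM was 305 to 349 in the *Nos* libraries and 553 to 783 in the core libraries, without overlap. The window includes the rows that name *Nos*. The *Nos* row with CG6700 is therefore among the lower rows by each of these rules and enters the sums. How far Df(2L)BSC230 extends is not given in the sources used here, and its part in these differences was not tested.

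On the side of higher coordinates all 19 rows up to 100 kb away were lower, with a median of -0.59, and 13 of them fell in the test of any size. On the other side 11 of 13 were lower, with a median of -0.35. *ial*, which encodes the Aurora B kinase of chromosome segregation, lies 13.9 kb away and was at 3.01, 2.63 and 2.58 FPKM in *Nos*, against 6.44, 7.69 and 11.5 (lowest, median and highest) in the core mutants. It fell by 1.29 ± 0.08 (SE), with a core-spread adjusted p of 0.0017. The adjoining CG17139 was at 113, 104 and 96.9, against 179, 193 and 223. These 3 *Nos* values all lay below the core range, and the row fell by 0.88 ± 0.09 (SE; core-spread adjusted p = 0.00115). CG7309 (-1.11 ± 0.10) and 1 of 7 rows of *dpr2* (-1.26 ± 0.14), a member of the defective proboscis extension response family of cell surface proteins, also fell in the core-spread test, with adjusted p of 0.0285 and 0.00714. CG33129, 122 kb away, fell by 1.08 ± 0.10 (SE) with an adjusted p of 0.0007. *Stam*, which sorts receptors at endosomes, was lower without overlap (-0.59 ± 0.11, adjusted p = 0.097). *UbcD2*, a ubiquitin-conjugating enzyme on the other side, was at 19.4, 21.2 and 19.9 against 24.2, 30.4 and 33.9. It fell in the test of any size (adjusted p = 0.00805) and not in the core-spread test (0.136). The 2 rows of the window with a difference above 0 were both on the side of lower coordinates. CG6415, at -98.1 kb, had a difference of 0.86 ± 0.26 (SE) with 7 of 9 differences higher (adjusted p = 0.0582 in the test of any size), and CG6495, at -34.1 kb, had one of 0.20, which did not pass (adjusted p = 0.118). The number of rows of the window that fell was 6 without the unstressed libraries and 12 to 16 without the temperature, metabolic, *Dg* or *Dys* libraries or without the condition term. The rows named in this paragraph were chosen after their values were seen.

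**Figure D1:**
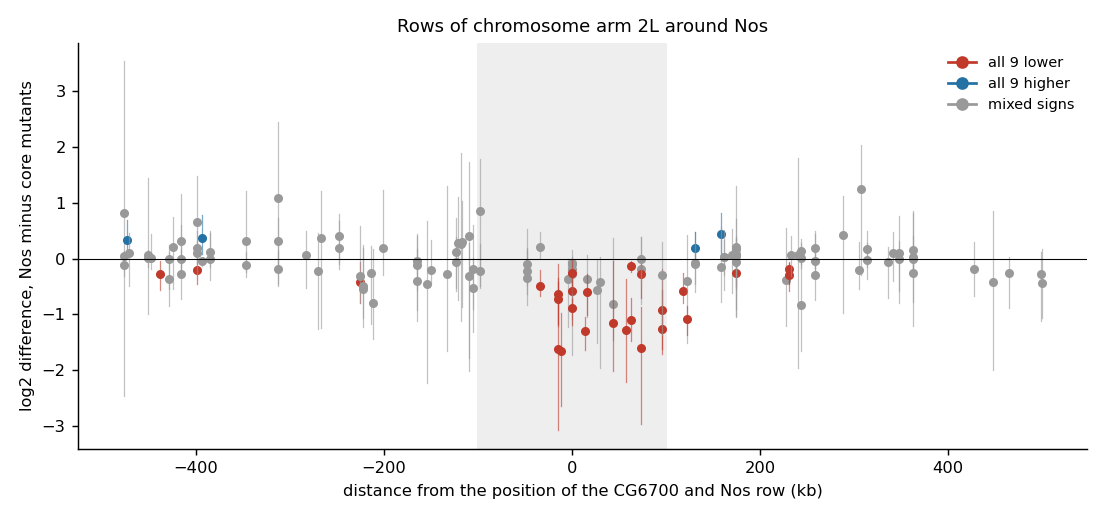
Mean difference between *Nos* and core mutants on the log2(FPKM + 1) scale (y axis, vertical lines for the range of the 9 differences) by distance in kb from the *Nos* row on 2L (x axis, window of 100 kb shaded), coloured by whether all 9 differences were lower, higher or mixed. In the window 34 of 36 points lie below 0, and from 100 to 500 kb 48 of 101 lie above it.

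Over all rows, differences went both ways, 5098 higher and 5252 lower in *Nos*, with a median SE of 0.12. In the test of any size 2689 rows passed (26%), 1300 higher and 1389 lower, and 1617 of these did not have all 9 differences on one side. In the 2-fold test 23 rows passed (0.222%), 13 higher (0.126%) and 10 lower (0.0966%). The core-spread test passed 155 (1.5%), 86 higher and 69 lower. All 9 differences had one sign in 1262 rows (12.2%; 667 higher, 595 lower), but in 667 of these the smallest difference was under 0.1. In 80 rows each of the 9 differences was at least 0.5, and in 25 at least 1, of which 16 were higher and 9 lower. A further 1900 rows had 8 of 9 differences on one side. The 3 *Nos* values lay wholly outside the core range in 403 rows (3.89%).

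These counts depend on which libraries stand in the fit. The rows of any size were 203 without the unstressed libraries, 701 without the temperature libraries, 665 without *Dys* and 4182 without *Syn1*. The rows of the 2-fold test were 7, 12 and 46 without the unstressed, temperature and *Syn1* libraries.

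*Nos* was not the mutant that stood farthest from the others. The same count, taken for each mutant against the remaining 3, gave 1262 rows of one sign for *Nos*, 1375 for *Dg*, 2573 for *Dys* and 1060 for *Syn1*. In the 2-fold test of that kind 23, 57, 63 and 24 rows passed. The median absolute difference per row was smallest between *Nos* and *Syn1*, at 0.203 ± 0.031 (SD over 3 conditions), followed by *Dg* and *Dys* at 0.263 ± 0.042 and *Nos* and *Dg* at 0.282 ± 0.052. It was 0.303 ± 0.061 between *Dg* and *Syn1*, 0.340 ± 0.068 between *Dys* and *Syn1* and 0.349 ± 0.036 between *Nos* and *Dys*. Under metabolic stress *Nos* was about as far from *Dg* (0.225) as from *Syn1* (0.226), so *Syn1* was the closest to *Nos* in 2 of 3 conditions. Taken singly, the 2-fold test passed 65 rows against *Dg* (0.628%), 78 against *Dys* (0.754%) and 21 against *Syn1* (0.203%). These 3 comparisons share the *Nos* libraries.

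**Figure D2:**
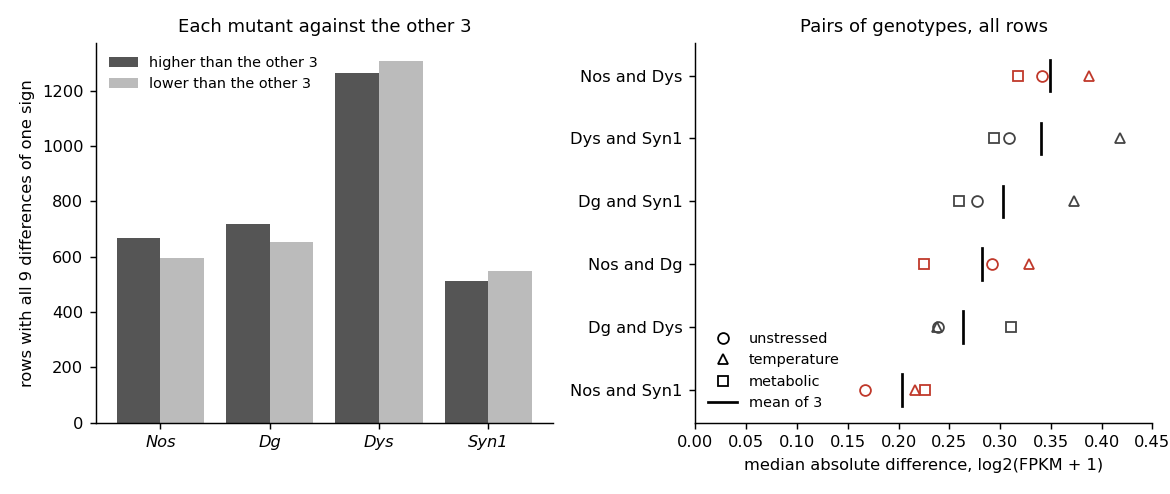
Left, number of rows with all 9 differences higher or lower for each mutant against the other 3 (bars), and right, median absolute log2 difference of each pair of genotypes by condition (points, with a black bar for the mean of 3; pairs with *Nos* in red). *Dys* has the tallest bars (1265 and 1308), and *Nos* and *Syn1* have the smallest mean (0.203).

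The largest decrease in *Nos* mutants was in lysozyme genes, whose enzymes cut the peptidoglycan of bacterial walls and are made in the fly gut. Of the lysozyme genes 6 had an analysed row, all at one listed position (3L, 1205467 to 1235457). *LysX* and *mtrm*, which the study discusses, had none. The study also reports *LysE* and *LysS* as upregulated in *Dg*, *Dys* and *Syn1* mutants against controls. It proposes that *Nos* is needed for their upregulation in the gut. Controls are not compared here, so the values below do not repeat that comparison. *LysC* was at 0.144, 0.243 and 0.208 FPKM in the unstressed, temperature and metabolic *Nos* libraries. The core mutants ranged from 37.1 to 395, with a median of 94.6. No core library came near the *Nos* values, and *LysC* fell by 6.53 ± 0.41 (SE; 2-fold test adjusted p = 0.000474, core-spread 0.000466).

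*LysD* was at 0.386, 0.371 and 0.278 FPKM, against 13.6, 50.7 and 213 (lowest, median and highest) in the core mutants. It fell by 5.18 ± 0.51 (SE), with an adjusted p of 0.0112 in the 2-fold test and 0.0113 in the core-spread test. *LysB* was at 1.06, 0.718 and 4.64 against 9.48, 28.6 and 112. The *Nos* metabolic library was the highest of the 3 and was still below every core library, with a difference of -3.45 ± 0.40 (SE; 2-fold test adjusted p = 0.0608).

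*LysE* went the other way. It was at 47.8, 35.5 and 34.5 FPKM in *Nos* and at 4.64, 9.35 and 14.9 (lowest, median and highest) in the core mutants, without overlap. It rose by 1.97 ± 0.22 (SE; adjusted p = 0.00161 in the test of any size, 0.00573 in the core-spread test) and did not pass the 2-fold test (0.286). *LysP* was at 7.29, 4.36 and 4.60 against 3.01, 6.06 and 12.1, and *LysS* at 0.162, 0.0823 and 1.24 against 0.111, 0.289 and 3.20. Neither passed the test of any size (adjusted p = 0.604 and 0.707).

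The lysozyme genes are close copies of each other, and how reads shared between them were assigned is not stated, so the split between *LysB*, *LysC*, *LysD* and *LysE* is uncertain. A sum over the copies depends less on it. Summed over these 4 genes, *Nos* flies had 49.4, 36.9 and 39.6 FPKM, and the core mutants 70.8 to 729. All 9 differences were lower, with a mean of -2.23 and a smallest of -0.51. Without *LysE* the sum was 1.59, 1.33 and 5.13 against 62.3 to 719, a mean difference of -5.83.

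Across the core mutants the 4-gene sum also varied widely, from 70.8 in unstressed *Dg* flies to 729 in *Dys* flies under metabolic stress. The distance to *Nos* was accordingly smaller for *Dg*: *LysC* differed by -5.48 from *Dg*, -7.12 from *Dys* and -7.00 from *Syn1*. *LysC* no longer passed the 2-fold test without the temperature libraries, *LysD* without the temperature or unstressed libraries, and *LysB* lost that call without any of 4 sets of libraries (unstressed, temperature, *Dg* or *Dys*). *LysB*, *LysC*, *LysD* and *LysE* kept the call of any size in all 13 alternatives, which reuse these libraries.

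Other digestive genes were read in 4 lists. In the test of any size, in which 12.6% of all rows rose and 13.4% fell, 1 of 7 Jonah protease rows rose and 1 fell, 4 of 19 rows of mucins and peritrophins rose and 2 fell, and none of 3 trypsin rows was called. Of 20 rows of amylase, maltases and mannosidases, 3 rose and 0 fell, with a median of 0.63. That count was 0 without the unstressed, temperature or *Dys* libraries and 11 without the metabolic or *Syn1* libraries.

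**Figure D3:**
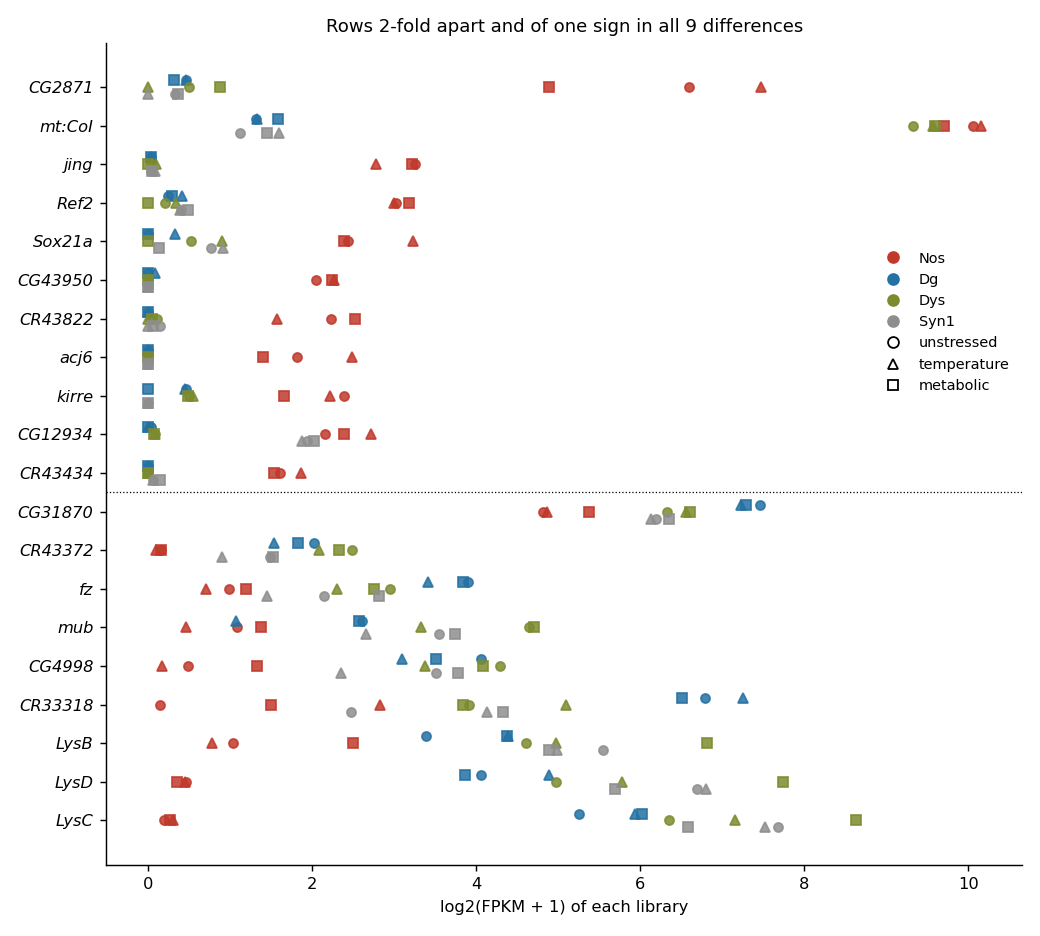
Level of each of the 12 libraries as log2(FPKM + 1) (x axis, colour for the genotype and shape for the condition) for the 20 rows of one sign in all 9 differences that passed the 2-fold test, higher rows above the dotted line and lower rows below it. The *Nos* points of *LysC* lie near 0 and far left of all core points, and for mt:CoI the *Dys* points lie beside those of *Nos*.

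Together with 3 lysozymes, 20 rows passed the 2-fold test with all 9 differences of one sign, 11 higher and 9 lower, and 16 of them also passed the core-spread test. All 20 kept a call of any size in each set of libraries left out. The rows were chosen for large differences in these same libraries, so neither count is a separate check. The call above 2-fold was less stable and stood for 6 of the 20 without the unstressed libraries, 7 without the temperature libraries and 10 with the core spread as error. For rows of *jing*, *Ref2* and CG43950 it stood in every alternative run that kept the row, CG43950 being left out by a minimum mean of 1 FPKM.

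Among the lower rows, CG4998 (3L, 16334625 to 16335206) was at 0.405, 0.129 and 1.52 FPKM in *Nos*, against 4.12, 10.4 and 18.6 (lowest, median and highest) in the core mutants. It fell by 2.90 ± 0.20 (SE; 2-fold test adjusted p = 0.00414). CG31870 (2L, 10790061 to 10792340) lies at -11.8 kb from the *Nos* row and so belongs to the window described above. It was at 27.3, 28.1 and 40.6 against 69.1, 93.4 and 175, which do not overlap, and fell by 1.66 ± 0.11 (SE; adjusted p = 0.0719).

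The noncoding RNA CR33318 was at 0.114, 6.11 and 1.82 against 4.57, 19 and 152. Here the *Nos* temperature library lay within the core range, the difference was -3.43 ± 0.36 (SE; 2-fold test adjusted p = 0.0326), and the core-spread test was not passed (0.141). CR43372 was at 0.119, 0.0726 and 0.114 against 0.87, 2.55 and 4.61 and fell by 1.66 ± 0.10 (SE; adjusted p = 0.0355). One row each of *fz*, the Frizzled receptor of Wingless and planar polarity signalling (1 of 9 rows), and of *mub*, an RNA-binding protein of the mushroom bodies (1 of 5), were also lower. The *fz* row was at 0.982, 0.635 and 1.29 against 1.74, 6.06 and 13.9, a difference of -1.88 ± 0.16 (SE; adjusted p = 0.081). The *mub* row was at 1.13, 0.382 and 1.6 against 1.11, 9.09 and 25.2. It overlapped at the *Dg* temperature library and differed by -2.23 ± 0.13 (SE; adjusted p = 0.00417, core-spread 0.123). Another *mub* row was higher in all 9 differences. The summed rows differed by only -0.15 for *mub* and -0.45 for *fz*.

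The largest increase was in 1 of 2 rows of CG2871 (X, 4669904 to 4671474), at 96.0, 177 and 28.7 FPKM in *Nos* and 0, 0.289 and 0.844 (lowest, median and highest) in the core mutants. It rose by 5.95 ± 0.43 (SE; 2-fold test adjusted p = 0.00132). The other row of that gene was lower in all 9 differences, at 18, 29.6 and 68.2 against 88.5, 143 and 284, and fell by 2.10 ± 0.37 (SE; adjusted p = 0.011 in the test of any size). The sum of both rows was 114, 207 and 96.9 in *Nos* and 88.7 to 285 in the core mutants, a difference of -0.15. The rows of CG2871 thus moved in opposite directions, with little difference in their sum.

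In other genes with several rows, the 2-fold call was on 1 row, and the sum over the rows of the gene is given beside it. One of 10 rows of *jing*, a zinc finger transcription factor of the nervous system and trachea, was at 8.52, 5.88 and 8.28 FPKM in *Nos* and at most 0.0716 in the core mutants. It rose by 3.03 ± 0.10 (SE; 2-fold test adjusted p = 3.75e-05), and the summed rows of *jing* differed by 1.20, with 2 rows higher in all 9 differences. One of 3 rows of *Ref2*, a relative of the mRNA export factor REF, was at 7.15, 7 and 8.06 against at most 0.401. It rose by 2.76 ± 0.09 (SE; adjusted p = 4.22e-05), and the sum of its rows differed by 2.32, with 2 of them higher in all 9.

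*Sox21a*, a transcription factor of intestinal stem cells, was higher in both of its rows, whose sum differed by 2.13. The first was at 4.41, 8.41 and 4.23 against at most 0.889 and rose by 2.29 ± 0.13 (SE; adjusted p = 0.00328), and the second by 0.49 ± 0.10 in the test of any size (adjusted p = 0.0205). Of 31 rows of *kirre*, an adhesion protein of myoblast fusion, 1 was at 4.26, 3.66 and 2.15 against at most 0.461 (difference 1.82 ± 0.12; adjusted p = 0.0355), while the sum of its rows differed by 0.01. One of 3 rows of *acj6*, a POU domain factor of olfactory neurons, was at 2.52, 4.62 and 1.65 and was listed at 0 in all 9 core libraries (adjusted p = 0.0986), so no fold is given, and the summed rows differed by -0.19. Another *acj6* row was lower in all 9 differences.

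Some genes had such rows without a call above 2-fold (chosen after their values were seen). *bbg*, a PDZ domain protein, had 7 rows, of which 3 were higher and 1 lower in all 9 differences. One higher row was at 5.81, 1.54 and 6.78 in *Nos* and at most 0.172 in the core mutants. The lower row was listed at 0 in *Nos* and at 1.13 to 10.2 in the core mutants. These 2 rows passed the core-spread test (adjusted p = 0.000833 and 0.0412), and the summed rows of *bbg* differed by 0.65. One of 3 rows of *fas* was at 5.26, 4.38 and 10.2 against at most 1.39, with a summed difference of 0.68. Another *fas* row was lower in all 9 differences. One of 5 rows of *AGO3*, an Argonaute protein of the piRNA pathway, was at 1.51, 0.987 and 1.55 against at most 0.0705, with a summed difference of 0.51.

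The uncharacterised CG43950 was at 3.15, 3.83 and 3.75 FPKM in *Nos* and listed at 0 in 8 of 9 core libraries, with 0.0606 in the *Dg* temperature library. Its difference of 2.18 ± 0.07 (SE; adjusted p = 9.34e-05) rests on the pseudocount, as does that of the noncoding RNAs CR43822 (2.07 ± 0.14) and CR43434 (1.64 ± 0.08), whose core libraries were mostly listed at 0. CG12934 was at 3.48, 5.60 and 4.26, but only *Dg* and *Dys* were near 0, whereas *Syn1* was at 2.68 to 3.08. It passed the 2-fold test (adjusted p = 0.0259) and not the core-spread test (0.196).

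The mitochondrial row mt:CoI, a subunit of cytochrome c oxidase, also rests on some of the core mutants. It was at 1059, 1135 and 831 FPKM in *Nos* and 642 to 774 in *Dys*, but at 1.17 to 2.02 in *Dg* and *Syn1*. The mean difference of 5.87 ± 0.12 (SE; 2-fold test adjusted p = 2.95e-07) was made of 8.56 against *Dg*, 8.58 against *Syn1* and 0.47 against *Dys*. The core-spread test did not pass (0.277).

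In all, 3 rows passed the 2-fold test without agreement of all 9 differences, and each turned on 1 or more core mutants. The cuticle gene *TwdlE* was higher in 8 of 9 differences (3.93 ± 0.40). CG15025 was listed at 0 in the *Dys* libraries at the same listed position as *Dys*, while it differed by -0.03 from *Dg* and 0.04 from *Syn1*. A row of *C15* was lower in 8 of 9 (-2.24 ± 0.21), with -0.01 against *Dg*. None of the 3 passed the core-spread test (adjusted p = 0.188, 0.571 and 0.311).

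Other rows passed the core-spread test without a call above 2-fold. *TwdlP*, a Tweedle cuticle protein, was at 9.73, 12.6 and 11.5 FPKM against 1.85, 2.54 and 5.08 (lowest, median and highest) and rose by 1.75 ± 0.16 (SE; adjusted p = 0.000362). *Cyp6a20*, a cytochrome P450 known for its part in male aggression, was at 12.7, 10.2 and 16.2 against 0.0976, 1.96 and 5.27 and rose by 2.48 ± 0.34 (SE; core-spread adjusted p = 0.0627). The mucin *Muc4B* was at 0.111 and 0.104 in unstressed and heat-stressed *Nos* flies but at 5.58 after metabolic stress, against 9.54, 14.3 and 25.6. It fell by 2.94 ± 0.49 (SE; adjusted p = 0.0285), with the metabolic library much the closest to the core mutants.

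*IM3*, an immune-induced peptide of the Bomanin family, was at 149, 87.8 and 264 FPKM, against 12.8, 52.2 and 70.2. It did not overlap and rose by 1.89 ± 0.30 (SE; core-spread adjusted p = 0.057). CG15068 at the same listed position (2R, 14275309 to 14278295) rose by 1.92 ± 0.29 (SE; 0.0748), and CG34215 by 1.56 ± 0.21 (SE; 0.0285). The 10 rows of antimicrobial peptides had a median difference of -0.04. *msopa*, a male-specific gene, was at 20.8, 26.7 and 7.40 against 58.1, 75.3 and 159 and fell by 2.27 ± 0.30 (SE; 0.0121). *Pp1-Y1*, a Y-linked phosphatase subunit, was at 3.30, 2.30 and 1.13 against 5.63, 12.5 and 16.7, without overlap, and fell by 1.92 ± 0.19 (SE; 0.0233). CG34433 was at 19.6, 15.9 and 21.9 against 35.5, 38.6 and 41.3 and fell by 0.98 ± 0.09 (SE; 0.000787). The noncoding CR34335 was at 73.2, 39.9 and 64.7 against 15.8, 25.4 and 30.8 and rose by 1.23 ± 0.13 (SE; 0.00115). These rows, from *IM3* on, were chosen after their values were seen.

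Seminal fluid genes of the accessory gland were lower in *Nos* mutants. Of 24 rows, 10 were lower in all 9 differences and 0 higher, and 11 fell and 0 rose in the test of any size. Of all rows 5.75% were lower and 6.44% higher in all 9, and 13.4% fell and 12.6% rose. The median difference was -0.66, beside -0.01 for all rows. It was -0.50 against *Dg*, -0.66 against *Dys* and -0.86 against *Syn1*, and -0.37, -0.70 and -0.96 in unstressed, temperature and metabolic libraries. Only *Sfp24Bc* passed the core-spread test. It was at 14.9, 8.36 and 5.33 FPKM against 12.8, 27.9 and 49.4 (lowest, median and highest) and fell by 1.47 ± 0.21 (SE; adjusted p = 0.0414).

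*Acp70A*, the sex peptide that changes female behaviour after mating, was at 192, 57.9 and 89.3 FPKM against 121, 237 and 463. The unstressed *Nos* library lay inside the core range and the others below it, and the row fell by 1.10 ± 0.34 (SE; adjusted p = 0.0633). *Acp63F* was at 40.1, 20.6 and 14.1 against 35.7, 63.4 and 91.5 and fell by 1.28 ± 0.33 (SE; adjusted p = 0.0381). The abundant *Sfp60F* was at 1768, 1098 and 521 against 1192, 2422 and 3769 and fell by 1.13 ± 0.24 (SE; adjusted p = 0.0204). *Acp26Aa*, the ovulation-stimulating protein, was at 286, 157 and 116 against 119, 284 and 470, and its difference of -0.68 ± 0.30 (SE) did not pass (adjusted p = 0.148).

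Summed over the list the *Nos* libraries had 1206 to 3234 FPKM and the core libraries 2251 to 5582, so the sums overlapped. The number that fell was 0 without the unstressed libraries, 2 without the temperature libraries, 4 without *Dys*, 6 without the condition term and 17 without *Dg*. Beside 13.4% of all rows that fell and 12.6% that rose, ejaculatory duct genes had 2 of 4 rows that fell, *Obp56g* (-1.25 ± 0.24; adjusted p = 0.0145) and *Peb* (-1.17 ± 0.32; adjusted p = 0.0432), and 0 without the unstressed libraries. In the testis list 8 of 26 rows fell and 0 rose, with a median of -0.30 that was -0.42 against *Dg*, -0.49 against *Dys* and -0.01 against *Syn1*. *Mst84Da*, a sperm tail protein, was at 98.0, 69.2 and 140 against 135, 175 and 289 and fell by 0.87 ± 0.15 (SE; adjusted p = 0.01). No testis row passed the core-spread test, and the count was 0 without the unstressed libraries, 1 without *Dys*, 2 without the temperature libraries or the condition term, and 18 without *Syn1*.

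Genes of the eye were higher. Of 22 rows for phototransduction and eye pigment, 8 were higher in all 9 differences and 0 lower, and 13 rose and 1 fell in the test of any size. Of all rows 6.44% were higher and 5.75% lower in all 9, and 12.6% rose and 13.4% fell. The median was 0.50, at 0.32 against *Dg*, 0.87 against *Dys* and 0.38 against *Syn1*. Summed FPKM was 815 to 1027 in *Nos* and 440 to 751 in the core mutants, without overlap. *trpl*, a cation channel of phototransduction, was at 82.3, 87.4 and 76.9 FPKM against 16.6, 39.4 and 73.8 (lowest, median and highest) and rose by 1.09 ± 0.16 (SE; adjusted p = 0.00541, core-spread 0.193).

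Among the rhodopsins, *Rh6* of the R8 photoreceptor was at 38, 57.8 and 31.4 against 12.5, 26 and 35.7. Only the metabolic *Nos* library overlapped the core range, and the row rose by 0.79 ± 0.11 (SE; core-spread adjusted p = 0.0233), the single row of the list that passed that test. The ultraviolet rhodopsin *Rh3* was at 99.3, 118 and 110 in 1 of 2 rows against 42.9, 75.6 and 92.6 and rose by 0.62 ± 0.14 (SE; adjusted p = 0.0241), while its other row was the one that fell. *Rh2*, the rhodopsin of the ocelli, was at 81.2, 83.3 and 92.9 against 79.1, 89.8 and 123 and did not pass (-0.15 ± 0.08; adjusted p = 0.24). *ninaC*, a myosin kinase, and the Gq subunit *Galpha49B* rose by 0.87 ± 0.22 and 0.60 ± 0.12. The number that rose was 4 without the temperature libraries or without *Dys*, 6 without the unstressed libraries, 7 without the condition term and 8 without the metabolic libraries. The main rhodopsin *ninaE* and the arrestins had no analysed row.

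**Figure D4:**
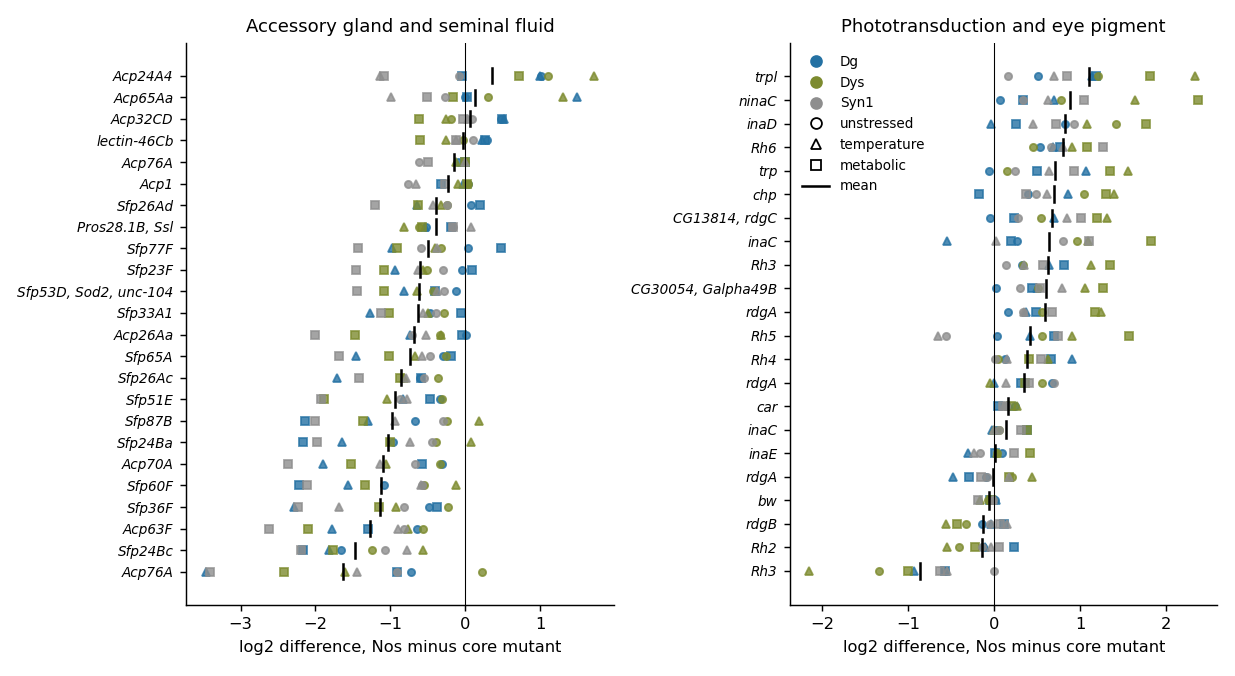
Differences of *Nos* from each core mutant in each condition on the log2(FPKM + 1) scale (x axis, 9 points a row, colour for the mutant and shape for the condition, black bar for the mean) for the seminal fluid and the phototransduction rows. All 9 points of *Sfp24Bc* lie left of 0 (mean -1.47) and all 9 of *trpl* lie right of it (mean 1.09), while 3 seminal fluid means and 5 eye means lie on the opposite side of their lists.

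Ribosomal protein genes were modestly higher. In the test of any size 37 of 54 rows rose and 3 fell (12.6% and 13.4% of all rows), with a median of 0.40. That median was 0.50 against *Dg* and 0.59 against *Dys* but 0.05 against *Syn1*. *RpL22* was at 154, 202 and 178 FPKM against 85.2, 116 and 163 and rose by 0.61 ± 0.12 (SE; adjusted p = 0.0162). No row of the list passed the core-spread test, and the number that rose was 0 without the unstressed libraries, 1 without *Dys*, 3 without the temperature libraries and 7 without the condition term.

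In nitric oxide and cGMP signalling, the pathway of the mutated enzyme, 11 of 45 rows rose and 4 fell in the test of any size, beside 12.6% and 13.4% of all rows. The *Nos* row itself is 1 of the 4 that fell. The median was 0.03. Without the unstressed libraries 0 rose and 0 fell, and without the temperature or the *Dys* libraries 3 rose and 2 fell. *Gycbeta100B*, the beta subunit of the soluble guanylyl cyclase that binds nitric oxide, shares its row with CR43458. It was at 4.82, 5.30 and 4.75 FPKM against 2.43, 3.25 and 4.16 (lowest, median and highest), without overlap, and rose by 0.45 ± 0.10 (SE; adjusted p = 0.0211). The atypical cyclases *Gyc-89Da* and *Gyc-89Db*, which share a row, were at 0.561, 0.770 and 0.526 against 0.535, 0.878 and 1.45. They fell by 0.26 ± 0.08 (SE; adjusted p = 0.0602).

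*Pkg21D*, a cGMP-dependent protein kinase, was at 26.7, 20.2 and 24.0 against 3.65, 16.9 and 23.1. It rose by 0.73 ± 0.17 (SE; adjusted p = 0.0262), with 1.54 against *Dg* but 0.24 against *Dys* and 0.42 against *Syn1*. The phosphodiesterase *Pde8*, in a row with CG42241, rose by 0.54 ± 0.16 (adjusted p = 0.0516). Of the nuclear receptors, *Eip75B*, whose heme binds nitric oxide, rose in 1 of 8 rows (0.62 ± 0.13) and fell in another (-1.04 ± 0.19), and its summed rows differed by -0.22. Its partner *Hr46* rose in 1 of 3 rows (0.51 ± 0.12). Of the histone deacetylases *HDAC4* rose by 0.48 ± 0.13 (adjusted p = 0.0395). The *Nos* row was the only row of this list that passed the core-spread test.

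In the complex itself 5 of 21 rows rose and 1 fell (12.6% and 13.4% of all rows), with a median of 0.07. The number that rose was 1 without the unstressed libraries, 3 without the temperature or *Dys* libraries or the condition term, and 10 without *Syn1*, and the median was -0.07 without *Dys*. The rises include rows of *Syn1* and *Dys* that are at 0 in their own mutants. *Scgalpha*, a sarcoglycan, was at 4.54, 6.31 and 5.28 FPKM against 2.42, 3.09 and 4.58 and rose by 0.59 ± 0.11 (SE; core-spread adjusted p = 0.0866). *Syn2*, the second syntrophin, was at 6.40, 10.1 and 5.94 against 2.52, 4.25 and 8.77 and rose in the test of any size by 0.66 ± 0.16 (adjusted p = 0.0304). *Scgdelta* rose by 0.26 ± 0.08 (adjusted p = 0.0605), and dystrobrevin (*Dyb*) did not pass (0.21 ± 0.13; adjusted p = 0.289).

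Of 31 rows for the sarcomere, the contractile unit of muscle, 6 rose and 0 fell (12.6% and 13.4% of all rows), with a median of 0.17, and none passed the core-spread test. The number that rose was 0 without the unstressed libraries, 1 without the temperature libraries, 3 without the condition term and 9 to 11 without the metabolic, *Dg* or *Syn1* libraries. Without *Dys* 0 rose and 1 fell, with a median of -0.01. *Zasp52*, a Z-disc protein, was at 316, 219 and 366 FPKM in 1 of 2 rows against 110, 192 and 317 and rose by 0.55 ± 0.09 (adjusted p = 0.00772). Of 57 neuronal rows 10 rose and 2 fell, beside the same shares of all rows, with a median of 0.05, and the number that rose was 2 to 5 without the unstressed, temperature, metabolic or *Dys* libraries or the condition term. The row with *Gad1*, which makes the transmitter GABA, was at 43.6, 20.6 and 59.4 against 10.2, 24.3 and 32.5 and rose by 0.80 ± 0.15 (core-spread adjusted p = 0.0889).

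In metabolism, 9 of 18 lipid rows rose and 3 fell (12.6% and 13.4% of all rows), with a median of 0.36. The number that rose was 1 without the unstressed or *Dys* libraries and 2 without the temperature libraries or the condition term. One of 2 rows named for the lipophorin receptor *LpR2* alone was at 2.29, 3.29 and 3.29 FPKM against 0.639, 1.14 and 2.14, without overlap, and rose by 0.86 ± 0.18 (core-spread adjusted p = 0.0957). The sums of both rows overlapped and differed by 0.27. The triglyceride lipase *bmm* was at 61.6, 52.7 and 234 against 24.5, 46.3 and 164 and rose by 0.75 ± 0.24 (adjusted p = 0.0698). In sugar metabolism and insulin signalling 7 of 33 rows rose and 5 fell (12.6% and 13.4% of all rows). These counts were 0 and 1 without the unstressed libraries, 2 and 1 without the temperature libraries, 2 and 0 without *Dys*, and 15 and 6 without *Syn1*. The trehalose transporters *Tret1-1* and *Tret1-2* rose by 0.92 ± 0.22 (adjusted p = 0.0308), and a row of trehalase (*Treh*) fell by 0.56 ± 0.17 (adjusted p = 0.0564). *Pdfr*, the receptor of the circadian neuropeptide PDF, rose by 0.96 ± 0.14 (adjusted p = 0.00533).

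Of 303 rows with noncoding RNA names 26 rose and 70 fell (12.6% and 13.4% of all rows), with a median of -0.11. In the core-spread test 6 rose and 7 fell (0.831% and 0.667% of all rows). In the test of any size the number that fell was 8 without the unstressed libraries, 24 without the temperature libraries, 19 without *Dys* and 32 without the condition term. Over the 34 gene lists, 15 had a median within 0.1 of 0, 9 had a median above 0.3 and 4 below -0.3. In 23 lists no row passed the core-spread test. Of all rows 1.5% passed it, so a short list without such a row says little. In 18 lists the medians against *Dg*, *Dys* and *Syn1* had one sign. Of the yolk protein genes, which mark females, *Yp1* was at most 0.333 and *Yp2* at most 0.357 FPKM in the 12 libraries. *Yp3* was at 7.62, 9.99 and 5.32 in *Nos* against 2.58, 4.38 and 7.23 and rose by 0.68 ± 0.10 (SE; adjusted p = 0.00601, core-spread 0.153).

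**Figure D5:**
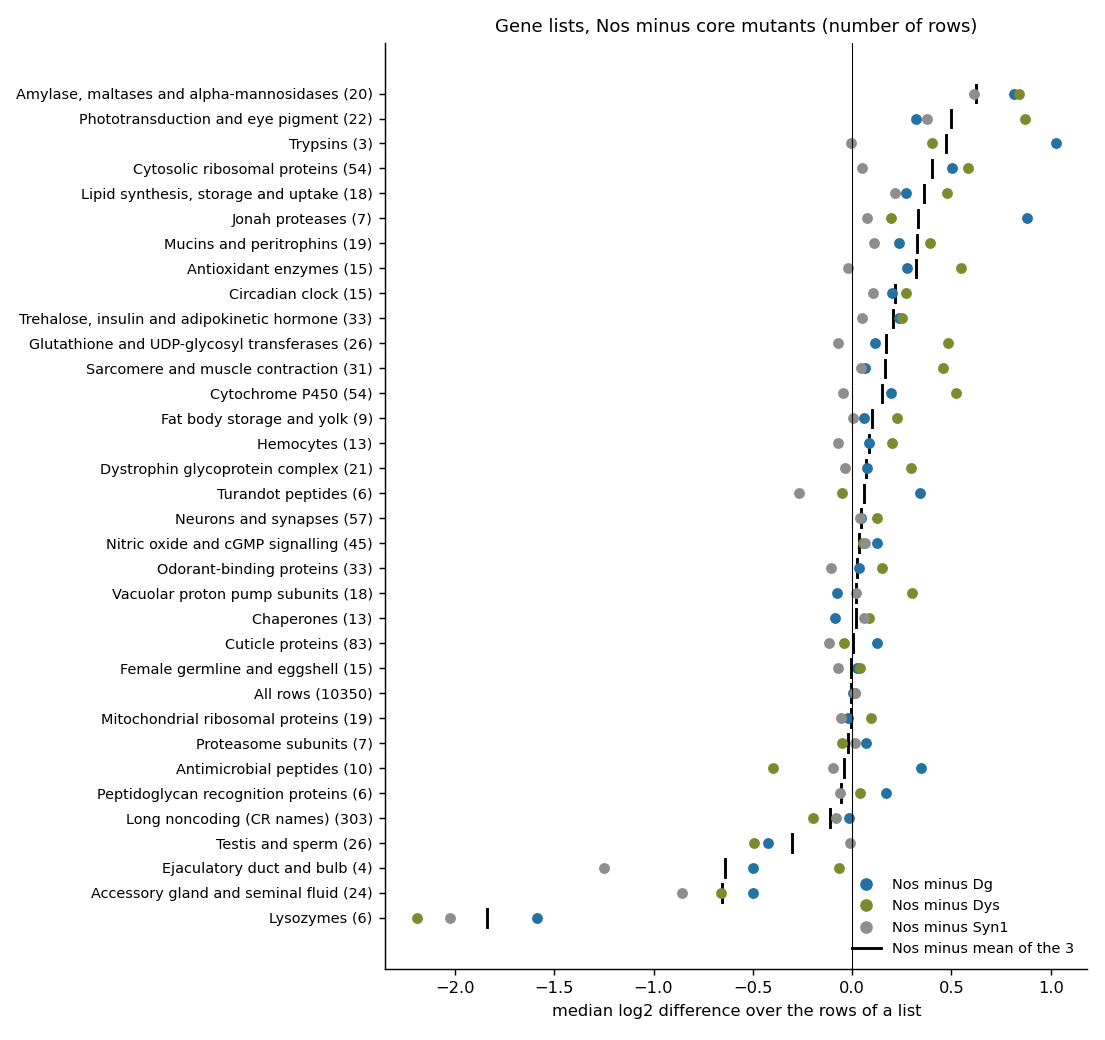
Median log2 difference over the rows of each gene list (x axis) for *Nos* minus *Dg*, *Dys* and *Syn1* (coloured points) and minus their mean (black bar), with the number of rows in brackets and the single mitochondrial row left out. Seminal fluid lies below 0 against all 3 mutants (-0.50 to -0.86) and phototransduction above 0 (0.32 to 0.87), whereas ribosomal proteins are at 0.05 against *Syn1*.

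No row differed between *Nos* and the core mutants in its response to either stress after adjustment. A limma fit with an interaction of *Nos* with each stress, which has 4 residual degrees of freedom, called 0 of 10350 rows at an adjusted p of 0.1 for temperature and 0 for metabolic stress (0% each). At an unadjusted p under 0.05 there were 286 rows for temperature (2.76%) and 397 for metabolic stress (3.84%). With 1 library per genotype and condition this says only that no single row stood out from the disagreement among libraries.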

How the data were processed

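RNA of whole male flies was sequenced as single-end reads, 1 library per genotype and condition. The authors deposited FPKM values with a position and an estimation status per row; the tool and build behind them are not stated with the tables. The submitters' processing notes name STAR, DESeq2 and BDGP6, and no counts were used here. Each library lists 14124 rows. A gene name is on 10776, and 426 of these were left out because a status was not OK. Of the named rows 993 list more than 1 gene.

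Summed FPKM was 226963 to 282434 in the 12 libraries. Relative depth, read from the steps of values under 0.15 FPKM, differed by at most 1.41-fold, and the absolute depth is not known.

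Linear models of log2(FPKM + 1) in limma 3.58.1 (R 4.3.3) had genotype and condition as terms, 6 residual and 2.64 prior degrees of freedom and a median residual SD of 0.187. The 2-fold test used treat. The core-spread test replaced genotype by *Nos* against core (8 residual degrees of freedom, SD 0.277). P-values were adjusted over 10350 rows, and the steps were tested on simulated data. No genotype has a second library in a condition, so p-values measure only the spread between these libraries.

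The rows named were every *Nos* row, the highest row of *Dg*, *Dys* and *Syn1*, up to 12 rows per direction of the 2-fold test with 9 differences of one sign, up to 4 such rows of any size per list, the lysozymes, and any interaction call. Rows outside this rule were chosen after their values were seen, among them the second rows of genes, *TwdlE*, CG15025, *C15*, *Acp26Aa*, *Sfp60F*, *Obp56g*, *Peb*, *Mst84Da*, *Rh2*, *ninaC*, *HDAC4*, *Dyb*, *Pde8* and *bmm*. The comparison, the members and the lists were chosen with earlier results of these data known. Python 3.11.15 and pandas 2.3.3 did the other steps.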

Additional observations from a re-analysis of the deposited data

Results flagged for a closer look

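Among the 9 core libraries, 5 of 28 rows tested had 1 library apart from the others (by Dixon's test on the gap to the nearest library). The rate of about 1 in 20 set for this test assumes libraries of the same kind. These libraries differ in genotype and condition. In addition, CG43950 and the second row of *Nos* alone were at 0 in all but 1 core library. Any single value above 0 is then flagged, so 5 of 28 cannot be weighed against that rate. CG43950 was at 0.0606 FPKM in the *Dg* temperature library and listed at 0 in the other 8. CR43434 was at 0.106 in the *Syn1* metabolic library, and the next highest was 0.0459. *Dg* was at 19.3 in the *Dg* temperature library, and the next highest was 14.0. The first row of *Nos* alone was at 0.631 and the second at 2.30 in the *Syn1* temperature library, where the other core libraries were at most 0.188 and 0.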

How the results depend on the processing

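The any-size count of 2689 was 203 without the unstressed libraries, 701 without the temperature libraries, 665 without *Dys*, 4182 without *Syn1*, 155 with the core spread as error, 1143 without the condition term and 1518 at an adjusted p of 0.05. The 2-fold count of 23 was 89 with a pseudocount of 0.1, 7 without the unstressed libraries, 12 without the temperature libraries, 46 without *Syn1*, 10 with the core spread as error, 12 without the condition term and 135 at an unadjusted p of 0.1. With a pseudocount of 0.1 and without the unstressed libraries, the counts against 1 mutant were 243 and 19 for *Dg* (65), 234 and 31 for *Dys* (78), and 100 and 6 for *Syn1* (21). The 1262 rows of one sign became 1980, 2250 and 2316 without unstressed, temperature and metabolic libraries and 2360 and 3429 without *Dg* and *Syn1*, where each row has only 6 differences, 595 with each difference at least 0.1 and 25 with each at least 1. The count of *Dg* against the others (1375) was 894 at a mean FPKM of at least 1. The interaction count was 0 in every alternative run.

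Over the single rows named, 1510 of the values under an alternative kept their direction and side of the threshold. A further 350 lost the call, 7 gained a call and none reversed. Many of these rows were chosen because all their differences had the same sign. For them, leaving out libraries or changing the pseudocount could not reverse the mean. The absence of reversals is therefore no check of these rows. Libraries were compared within condition, and no further pairing was possible with 1 library per genotype and condition. Control libraries in the fit, median-ratio scaling and an intensity trend left these counts within 1.5 times. Depth limits rows under about 1 FPKM, where the pseudocount sets the size of a difference.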
